A study of Mus musculus with 12 samples.

Results

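Neutrophils of the mouse aorta were taken as the barcodes in which the summed unique molecular identifiers (UMIs, each counting 1 captured RNA molecule) of S100a8, S100a9 and Retnlg reached 20. Barcodes entered when they held more than 200 detected genes, more than 500 UMIs and under 10% mitochondrial UMIs. This rule took 502 of the 71646 barcodes within those limits, and 337 of the 502, or 67.1%, came from the library of atherosclerotic (AS) aortas. Since the members were chosen by their measured UMIs of these 3 genes, the levels of those genes and the member numbers are a description, with no test. Each condition was 1 library of 6 pooled aortas, so there was no replicate and no p-value, and every interval covers counting error only.

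The methods of the study describe all 4 groups as male C57BL/6J ApoE-/- mice, aged 8 weeks at the start. Mice of this genotype lack apolipoprotein E, clear cholesterol-rich particles poorly and develop plaques, and the Apoe level of the Healthy library went against it. The Healthy group ate a normal diet for 24 weeks, and the other groups ate a high-fat diet with 1% cholesterol and 10% fat for the same time. Healthy and AS mice received saline. MTZ-treated mice received methazolamide (MTZ), an inhibitor of carbonic anhydrases, at 25 mg/kg every other day from week 13 to week 24, and MTZ-preventive mice received the same dose from week 1 to week 24. The single-cell libraries read the 5′ end of transcripts and came with libraries of B cell and T cell receptors from the same groups.

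Neutrophils are short-lived phagocytes made in the bone marrow, and they pack antimicrobial proteins into granules in a set order: primary granule enzymes in early precursors, secondary granule proteins such as lactoferrin and cathelicidin later, and gelatinase last. S100a8 and S100a9 encode the subunits of calprotectin, the most abundant cytosolic protein of the cell, and Retnlg encodes a resistin-like protein of mouse granulocytes. As the cells mature they stop making the secondary granule transcripts and make the receptors Csf3r, for granulocyte colony-stimulating factor, and Cxcr2, for CXC chemokines, which govern release from the marrow and entry into tissue. In atherosclerosis neutrophils are known to enter plaques and to release proteases, cytokines and chromatin traps there.

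The libraries differed before any neutrophil was considered. Within the limits they held 21346 Healthy, 6598 AS, 20786 MTZ-treated and 22916 MTZ-preventive barcodes, with medians of 1185, 863, 796 and 1369 UMIs per barcode. Apoe, the gene that the genotype should leave without its product, stood at 688 UMIs per 1000000 (CPM) in the Healthy library. It stood at 12, 11.8 and 8.64 CPM in AS, MTZ-treated and MTZ-preventive, so the library labelled Healthy went against the ApoE-/- genotype given for it. No member shared its barcode sequence with a member of another library. The AS library also carried the 3 rule genes in most of its other barcodes: 61.3% of them held at least 1 such UMI, against 1.03% in Healthy, 2.53% in MTZ-treated and 6.69% in MTZ-preventive. In AS, 2423 barcodes held no UMI of the 3 genes, 2514 held 1 to 4, 941 held 5 to 9, 383 held 10 to 19, 221 held 20 to 49, 70 held 50 to 99 and 46 held 100 or more. The distribution had no gap at 20 UMIs. Just outside the limit, 106 AS barcodes held 15 to 19 of these UMIs, and just inside, 43 held 20 to 24.

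The AS library held far more members than the others. They were 337 of 6598 AS barcodes, or 5.11% (exact 95% interval 4.59 to 5.67), against 40 of 21346 in Healthy (0.187%, 0.134 to 0.255), 41 of 20786 in MTZ-treated (0.197%, 0.142 to 0.267) and 84 of 22916 in MTZ-preventive (0.367%, 0.292 to 0.454). The share in AS was 27.3 times that in Healthy (95% interval of the ratio 19.6 to 38.8), 25.9 times that in MTZ-treated (18.7 to 36.7) and 13.9 times that in MTZ-preventive (10.9 to 17.9). MTZ-preventive lay above both Healthy and MTZ-treated, with intervals that did not overlap theirs. Its lead kept its direction in each setting below, but the intervals did not part in all of them. With more than 1000 UMIs required the shares were 0.300% (0.222 to 0.397) in MTZ-preventive, 0.203% (0.131 to 0.299) in Healthy and 0.125% (0.0571 to 0.237) in MTZ-treated. The first interval overlaps both others. Against MTZ-treated, with 2% of the UMIs in place of 20 UMIs, the shares were 0.349% (0.277 to 0.434) and 0.327% (0.254 to 0.415). With 10 UMIs they were 0.559% (0.466 to 0.664) and 0.433% (0.348 to 0.532), and the intervals overlap in both cases. Healthy stayed apart in both, at 0.178% and 0.356%. With 50 UMIs the shares were 0.244% (0.185 to 0.317) in MTZ-preventive, 0.0468% (0.0225 to 0.0861) in Healthy and 0.0625% (0.0333 to 0.107) in MTZ-treated. Without mixed barcodes, defined below, they were 0.292% (0.227 to 0.371), 0.0375% (0.0162 to 0.0738) and 0.0818% (0.0477 to 0.131). In these settings the MTZ-preventive interval lay above both others. A higher share of neutrophils and a lower yield of other cells cannot be told apart here, since AS gave the fewest barcodes.

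Most members also carried RNA of another cell type. A member is called mixed here when it held 5 or more UMIs of 1 other marker list (macrophage, B cell, T or NK cell, endothelial, fibroblast, smooth muscle, adipocyte, mesothelial, eosinophil, or mast cell and basophil), and single-type otherwise. The monocyte, red blood cell and platelet lists were not used for this call. Mixed members made up 32 of the 40 Healthy members (80.0%), 238 of the 337 AS members (70.6%), 24 of the 41 MTZ-treated (58.5%) and 17 of the 84 MTZ-preventive (20.2%). This left 8, 99, 17 and 67 single-type members, or 0.0375%, 1.5%, 0.0818% and 0.292% of the barcodes within the limits. Among single-type members the AS share was 40.0 times that of Healthy (19.5 to 95.3), 18.3 times that of MTZ-treated (10.9 to 32.8) and 5.13 times that of MTZ-preventive (3.73 to 7.11). The direction held without mixed members, and the ratio to MTZ-preventive was smaller than with them.

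**Figure D1:**
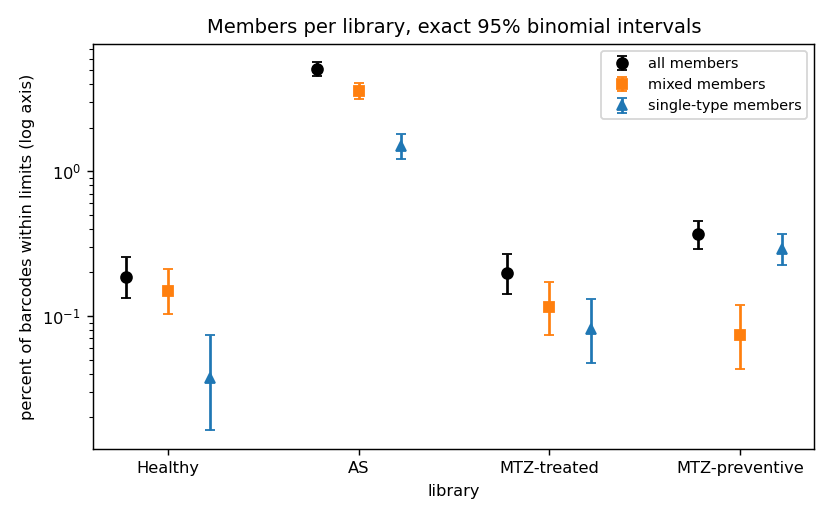
Members as a percent of the barcodes within the limits (log axis) in each of the 4 libraries, for all members (circles), mixed members (squares) and single-type members (triangles), with exact 95% binomial intervals. AS lies highest for each class, at 5.11%, 3.61% and 1.5%, and MTZ-preventive is the library in which single-type members outnumber mixed ones.

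The kinds of foreign RNA differed between the libraries. In AS, 138 members held 5 or more endothelial UMIs, 121 adipocyte, 105 smooth muscle and 64 fibroblast UMIs, while 0 reached 5 macrophage UMIs. Fabp4, a fatty acid carrier of capillary endothelium and fat cells, gave 1550 of the 1742 endothelial-list UMIs, and Cfd, the adipocyte serine protease adipsin, gave 3055 of the 3625 adipocyte-list UMIs. In Healthy the lists reached most often were fibroblast (30 of 40 members), endothelial (28) and smooth muscle (23), and in MTZ-treated they were smooth muscle (21 of 41) and fibroblast (18). In MTZ-preventive no list stood out, with 7 of 84 members reaching 5 endothelial, 6 fibroblast, 4 smooth muscle and 4 adipocyte UMIs. With Fabp4 and Cfd not counted, 9 Healthy, 156 AS, 18 MTZ-treated and 72 MTZ-preventive members would be single-type.

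In AS the classes were set beside the rest of the library. Mixed members hold 5 or more UMIs of another list and single-type members fewer by definition, so the sums of those lists in them are a description. The adipocyte list summed to 458 CPM in single-type members, 13255 in mixed members and 11958 in the other AS barcodes, and the smooth muscle list to 850, 6023 and 5755 CPM. The neutrophil list without the 3 rule genes summed to 9784, 2987 and 203 CPM in the same order. The median mitochondrial share was 1.71% in single-type members, 3.95% in mixed members and 3.63% in other barcodes, and the median share of UMIs on the ribosomal RNA genes Gm42418 and AY036118 was 7.13%, 11.6% and 11.6%. Per 100 UMIs of S100a9, the AS single-type members, mixed members and other barcodes held 72.6, 77.0 and 65.8 UMIs of S100a8, and 7.23, 7.15 and 5.54 of Ngp. Other ratios lay further apart, at 24.05, 39.2 and 37.1 for Retnlg, 10.0, 15.5 and 60.3 for Lcn2, and 3.80, 4.41 and 24.5 for Tyrobp, a signalling adaptor of all myeloid cells. The part that free RNA and joined cells take in the mixed members was not tested.

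**Figure D2:**
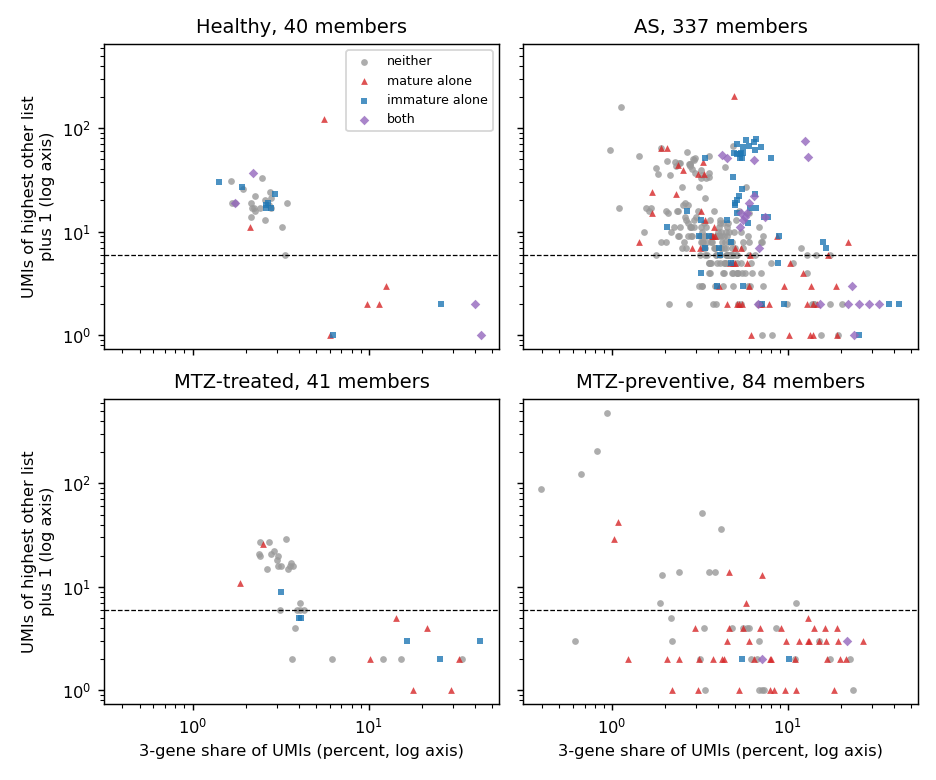
Each point is 1 member, with the share of its UMIs on S100a8, S100a9 and Retnlg (percent, log axis) against the UMIs of its highest other marker list plus 1 (log axis), 1 panel per library, by maturity class. Points below the dashed line are single-type, 8 of 40 for Healthy, 99 of 337 for AS, 17 of 41 for MTZ-treated and 67 of 84 for MTZ-preventive.

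**Figure D3:**
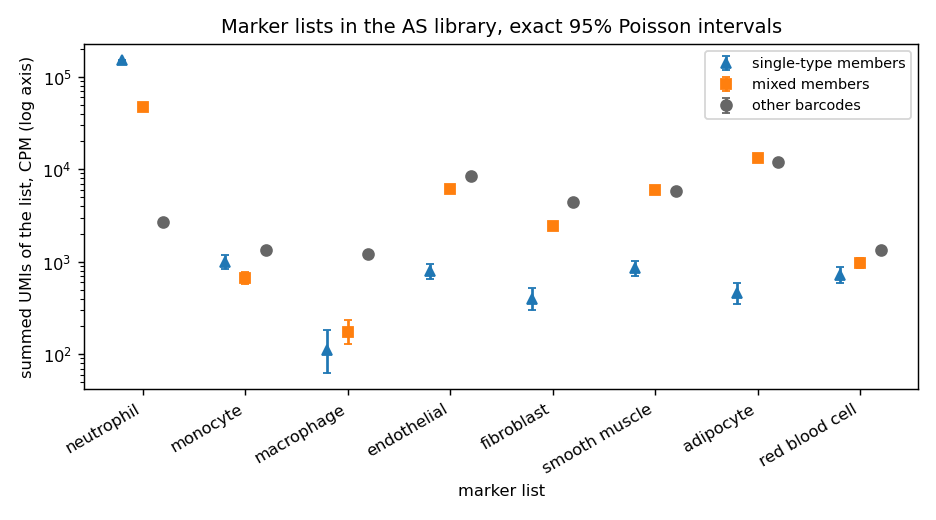
Summed UMIs of 8 marker lists in CPM (log axis) in the AS library for single-type members, mixed members and all other barcodes, with exact 95% Poisson intervals. The adipocyte list stands at 458 CPM in single-type members against 13255 in mixed members, and the macrophage list stays under 200 CPM in both.

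The single-type members carried other markers of their label. Of the 10 genes of the neutrophil list that did not choose the members, all were detected in the Healthy and AS single-type members and 9 in the MTZ-treated and MTZ-preventive ones, with Ltf at 0 in both. All 10 were also detected somewhere in the other barcodes of each library, and detection alone does not set the members apart. The 10 genes summed to 47132, 9784, 13030 and 6684 CPM in the single-type members of Healthy, AS, MTZ-treated and MTZ-preventive, and to 8.07, 203, 12.2 and 18.1 CPM in the other barcodes. Outside MTZ-preventive, Ngp, Camp and Ltf in few barcodes gave much of these sums. In Healthy they held 370, 373 and 85 of 927 UMIs, in 4, 4 and 3 of 8 barcodes. In AS they held 702, 93 and 40 of 1324 UMIs, 267 of the Ngp UMIs in 1 barcode. In MTZ-treated 1 barcode gave 93 Camp UMIs of the 168. In MTZ-preventive they held 51, 1 and 0 of 546 UMIs. AS single-type members expressed Il1r2, the decoy receptor of interleukin 1, at 1633 CPM in 56 of 99 barcodes, Mmp8, the neutrophil collagenase, at 746 CPM in 42, and Ly6g, the classical surface marker of mouse neutrophils, at 133 CPM in 10. The macrophage list summed to 111 CPM in them, and the lists of T or NK cells, eosinophils and mast cells or basophils were at 0 UMIs. Monocyte genes summed to 1005 CPM, against 1328 CPM in the other AS barcodes. That list holds Fn1, a matrix gene, which gave 185 CPM of the sum in single-type members on 25 UMIs. Single-type members were not screened for monocyte RNA, and this comparison does not decide whether monocytes are among them. No single-type member of any library held a B cell or T cell receptor contig. For most libraries this says little. In AS 76 of the 6261 other barcodes held a B cell receptor contig (1.21%) and 1 a T cell receptor contig, shares within what 0 of 99 allows (exact upper bound 3.66%), and in Healthy and MTZ-treated, with 8 and 17 single-type members, the upper bounds of 36.9% and 19.5% also lie above the shares in other barcodes. In MTZ-preventive the bound of 5.36% lies below the 9.03% of other barcodes with a B cell receptor contig but above the 2.60% with a T cell receptor contig. Apoe was at 0 UMIs in the single-type members of all 4 libraries.

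Within AS, members with a larger share of the 3 genes carried more Tyrobp and Csf3r. In 71 members with under 3% of their UMIs on the 3 genes, 69 were mixed, Tyrobp stood at 466 CPM and Csf3r at 46.6 CPM. In 182 members between 3% and 6%, these were 135, 1218 CPM and 114 CPM, and in 44 members between 6% and 10% they were 24, 1818 CPM and 175 CPM. The 40 members with 10% or more held 10 mixed barcodes, with Tyrobp at 3208 CPM and Csf3r at 304 CPM. Both genes thus stood higher in each successive bin, as the mixed share went down. Il1b did not follow that order, at 431, 826, 2476 and 596 CPM, and Cxcl2 stood at 4870, 9532, 21055 and 20160 CPM.

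The members were then parted by maturity. A member is called mature here when it held at least 1 UMI of Csf3r or Cxcr2, and immature when Ngp, Camp and Ltf summed to 3 or more. Ngp encodes neutrophilic granule protein, Camp the cathelicidin precursor and Ltf lactoferrin, all cargo of secondary granules. All 3 lie on chromosome 9 in the mouse, and 250 bases before each start are shown with that of Lcn2, which encodes lipocalin 2, a secondary granule protein that sequesters bacterial iron carriers and that the rule did not use. Capitals mark each match to TTGCNNAA on either strand (TTNNGCAA on the other), the core letters of a C/EBP-type site, C/EBP factors being regulators of granule genes. The windows come from RefSeq on GRCm38.p6: Ngp chr9:110419558-110419807 on the plus strand, Ltf chr9:111019042-111019291 on the plus strand, Camp chr9:109849457-109849706 on the minus strand and Lcn2 chr2:32387740-32387989 on the minus strand, each printed in the direction of its gene.
Ngp: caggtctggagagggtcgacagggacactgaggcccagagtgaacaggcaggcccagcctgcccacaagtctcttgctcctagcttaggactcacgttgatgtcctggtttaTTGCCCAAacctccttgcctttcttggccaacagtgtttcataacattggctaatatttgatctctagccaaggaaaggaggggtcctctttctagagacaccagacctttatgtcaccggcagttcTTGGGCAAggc
Ltf: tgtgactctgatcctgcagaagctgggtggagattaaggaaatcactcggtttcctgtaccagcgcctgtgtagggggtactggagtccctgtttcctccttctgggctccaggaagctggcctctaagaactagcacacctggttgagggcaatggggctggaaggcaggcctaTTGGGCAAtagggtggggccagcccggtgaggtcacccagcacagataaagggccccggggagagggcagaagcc
Camp: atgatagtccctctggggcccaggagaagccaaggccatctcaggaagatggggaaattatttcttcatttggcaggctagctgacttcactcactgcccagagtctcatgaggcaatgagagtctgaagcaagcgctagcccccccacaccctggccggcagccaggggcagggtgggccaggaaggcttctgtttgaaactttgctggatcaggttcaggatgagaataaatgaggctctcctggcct
Lcn2: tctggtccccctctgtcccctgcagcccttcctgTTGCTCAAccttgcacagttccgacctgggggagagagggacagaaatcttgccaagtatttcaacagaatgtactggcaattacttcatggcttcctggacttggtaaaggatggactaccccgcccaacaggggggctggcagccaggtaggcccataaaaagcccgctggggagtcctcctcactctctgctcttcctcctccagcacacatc
Ngp holds 2 matches, Ltf and Lcn2 hold 1 each and Camp holds 0. Of the other rule genes, S100a9 and Retnlg hold 1 each and S100a8, Csf3r and Cxcr2 hold 0, and 9.56% of 32851 mouse promoter windows of this length hold at least 1. A match is a description of these letters and no evidence that a factor binds.

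Over all AS members, mature and immature members were about equally common under the rule above, and mature members prevailed in MTZ-preventive. The balance in AS depended on the setting. When 2 UMIs were required for mature and 5 for immature, 7.12% of the AS members were mature and 14.8% immature. In AS single-type members, given below, mature members were the more common. Of the 337 AS members, 52 were mature alone, 53 immature alone, 22 both and 210 neither. MTZ-preventive held 46, 2, 2 and 34, Healthy 6, 9, 4 and 21, and MTZ-treated 8, 6, 0 and 27. Among single-type members, 34 of 99 in AS were mature (34.3%, 25.1 to 44.6) and 18 were immature (18.2%, 11.1 to 27.2), against 43 of 67 mature in MTZ-preventive (64.2%, 51.5 to 75.5) and 4 immature (5.97%, 1.65 to 14.6). Healthy had 6 mature and 4 immature of 8, and MTZ-treated 6 and 5 of 17.

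Deeper barcodes were called more often. The median was 1838 UMIs for AS members called both and 914 for those called neither. With every member thinned at random to 500 UMIs, the mature share of single-type members was 17.2% (10.3 to 26.1) in AS and 34.3% (23.2 to 46.9) in MTZ-preventive, and the immature share was 9.09% (4.24 to 16.6) and 1.49% (0.0378 to 8.04). These intervals overlap between the libraries for both shares. Barcodes with fibroblast markers, which should lack these genes, gave a thinned mature share of 0.686% in AS and 0.105% in MTZ-preventive. Their immature share in AS was 0 of 1458 (exact upper bound 0.253%), at a median of 922 UMIs before thinning against 845 in the AS single-type members. The shares in the AS single-type members were higher for both classes. Members were chosen for neutrophil RNA and the fibroblast-marker barcodes were not, so this gap does not show where that RNA came from. The source of the RNA behind the maturity calls was not tested.

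The immature gene set rested on few barcodes. In AS the 53 members immature alone held 561 Ngp UMIs, 88 Camp UMIs and 23 Ltf UMIs, and 1 barcode, single-type and with 8922 UMIs, gave 267 of the Ngp and 80 of the Camp UMIs. That barcode held 12.5% of the UMIs of all 53 and 49.2% of those of the 10 single-type ones. Of the 53, 43 were mixed and 37 held 5 or more adipocyte UMIs, against 26 mixed and 12 with adipocyte UMIs among the 52 mature alone. The adipocyte list stood at 18481 CPM in the immature and 5802 CPM in the mature members, and the median mitochondrial share at 5.05% and 1.90%. These values move with the comparison that follows, and their part in it was not tested.

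Within AS, mature members expressed more inflammatory mediators and surface receptors than immature members, and secondary granule genes were split. UMIs were summed per class and set to CPM, and a gene is called higher or lower when it differed 2-fold or more after 1 CPM was added, if it reached 50 CPM in 1 of the classes or in both. Of 3299 genes, 27.9% were called higher in the 52 mature than in the 53 immature members and 15.3% lower, with a median log2 ratio of 0.28. In the 26 against 10 single-type members, 36.0% were called higher and 25.6% lower, with a median of -0.01. The split moved with the scaling. With TMM factors (trimmed mean of M values, which scale classes to their common genes) 53.8% of the calls were higher rather than 64.5% in all members, and 73.2% rather than 58.4% in single-type members, where totals without the rule genes gave 45.9%. At 50 CPM these classes hold only a few UMIs of a gene, so the named genes carry their counts.

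Most cytokine and chemokine genes stood higher in mature members. Of 14 tested, 10 were called higher in mature members and 1 lower (median log2 ratio 3.02), and their summed level was 30631 CPM against 4676. Cxcl2, a neutrophil-attracting chemokine that signals through Cxcr2, had 1582 UMIs in the mature and 227 in the immature members (22497 against 3188 CPM), a ratio of 7.06 (6.14 to 8.15). In the mature members it was detected in 36 of 52, with a median over barcodes of 4141 CPM and a highest barcode of 238 UMIs, so its level was uneven among them. Il1b, the precursor of interleukin 1 beta, had 154 against 11 UMIs (ratio 14.2, 7.71 to 29.0), and the CC chemokines Ccl3 and Ccl4 had 126 against 20 (6.38, 3.96 to 10.8) and 130 against 13 (10.1, 5.72 to 19.5). Tnf had 34 against 8 UMIs (4.30, 1.96 to 10.8), and Nlrp3, the sensor of the inflammasome, had 19 against 2 (9.62, 2.32 to 85.2). Without the deepest immature barcode the summed level of the list in immature members was 5202 CPM. In single-type members 12 of 14 were called higher and 0 lower, and Cxcl2 stood at 35293 against 3532 CPM (9.99, 7.77 to 13.1). Without the deepest barcode, which held 49.2% of the immature UMIs there, the counts were again 12 and 0, and Cxcl2 in the immature members stood at 6631 CPM.

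Receptors of circulating neutrophils also stood higher in mature members. Of 19 tested, which leaves out the rule genes Csf3r and Cxcr2, 16 were called higher in mature members and 1 lower (median 1.42), and in single-type members 16 of 20 were higher and 0 lower. Cd14, the co-receptor for lipopolysaccharide, had 191 UMIs in mature and 26 in immature members (7.44, 4.92 to 11.7). Il1r2 had 109 against 35 UMIs (3.15, 2.14 to 4.76), Selplg, the ligand of P-selectin with which leukocytes roll on endothelium, 49 against 10 (4.96, 2.48 to 11.0), and Clec4e, a C-type lectin that senses damaged cells and fungi, 49 against 15 (3.31, 1.82 to 6.35). For Fpr1, a receptor for bacterial formyl peptides, the ratio of 2.53 had an interval that included 1 (0.730 to 11.1), on 10 and 4 UMIs.

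Other lists were smaller. Of 10 interferon-stimulated genes 6 were called higher and 0 lower, Isg15, a ubiquitin-like protein, with 44 against 11 UMIs (4.05, 2.06 to 8.70). Of 6 genes of aged or tissue neutrophils 4 were higher, led by Ccrl2, an atypical receptor that binds chemerin, with 51 against 2 UMIs (25.8, 6.79 to 219). Without the deepest immature barcode 4 of these 6 were higher and 1 lower. Of 5 survival genes 3 were higher, among them Mcl1, the survival factor neutrophils depend on, with 115 against 56 UMIs (2.08, 1.5 to 2.92). The oxidase complex had 1 of 6 higher and 0 lower, and Cyba, a membrane subunit of that complex, had 83 against 61 UMIs (1.38, 0.978 to 1.95). Glycolysis genes had 0 of 8 higher and 3 lower in all members, and 2 of 7 higher and 1 lower in single-type members.

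Secondary granule genes were split, and their calls rested largely on the deepest immature barcode. Of 7 tested besides the rule genes, 1 was called higher and 3 lower in mature members (median -0.17), and without that barcode 1 was higher and 1 lower. Ifitm6, a small membrane protein of myeloid cells, was counted in this list although it is not itself granule cargo. It had 21 UMIs in the mature and 108 in the immature members (ratio 0.197, 0.117 to 0.316), and 12 against 71 in single-type members. Without that barcode it still stood at 995 CPM in all immature members against 299 CPM in the mature, and it was the 1 gene then called lower. Lcn2 had 330 against 359 UMIs, a ratio of 0.931 whose interval included 1 (0.799 to 1.08), and stood at 4693 against 3869 CPM without that barcode. Wfdc21, a small secreted protein of the whey acidic protein family, then stood at 1195 against 915 CPM in all members, but at 1730 against 2392 CPM in single-type members. Chil3, the chitinase-like protein Ym1, went the other way with 73 against 29 (2.55, 1.64 to 4.07). Among the genes at 200 CPM or more in mature members and at 0 in immature ones were Ninj1, a membrane protein of lytic cell rupture, Il1rn, the interleukin 1 receptor antagonist, and Ptgs2, the cyclooxygenase of prostaglandin synthesis. They had 29, 21 and 17 UMIs in mature members, at least 9.79-fold, 7.09-fold and 5.74-fold higher against a floor of 3 UMIs for the class. At the low end stood Cxcl13, the B cell chemokine, with 10 against 105 UMIs, followed by Clec3b and Col3a1, which are fibroblast genes. Adipoq and Lpl, genes of fat cells, were also among the 12 lowest, and in single-type members Adipoq was at 0 UMIs in both classes.

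**Figure D4:**
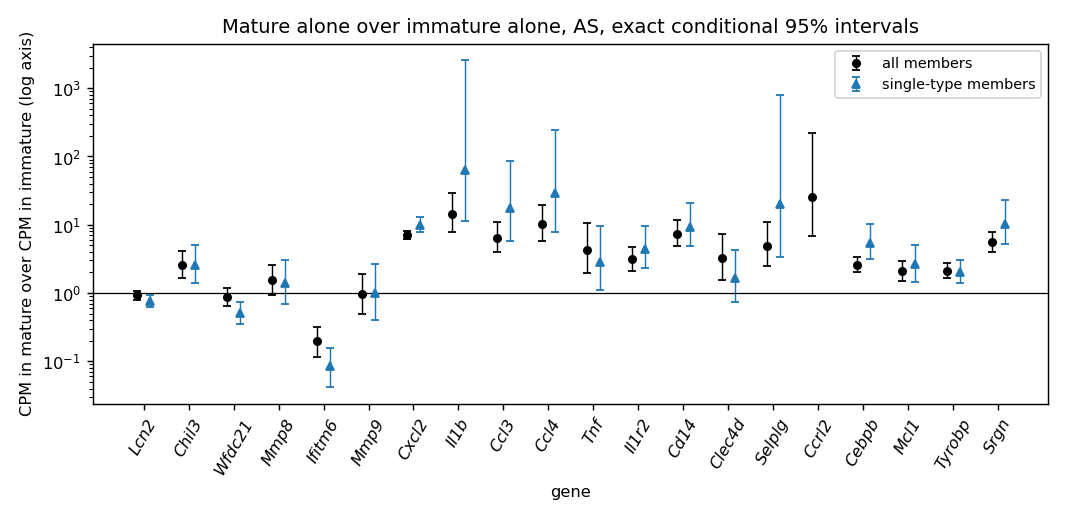
Ratio of CPM in AS members mature alone to AS members immature alone (log axis) for 20 genes, in all members (circles, 52 against 53) and single-type members (triangles, 26 against 10), with exact conditional 95% intervals. Cxcl2, Il1b, Ccl3, Ccl4, Cd14 and Srgn lie above 1 in both, Ifitm6 lies below 1 in both, and Ccrl2 has no triangle because it was at 0 UMIs in the immature single-type members.

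Against the macrophages of the same library, AS neutrophils stood higher in secondary granule genes and in most of the interferon-stimulated and cytokine genes tested. The macrophages were the 220 AS barcodes with 5 or more UMIs of C1qa, C1qb and C1qc together and under 20 of the 3 rule genes. Of 3192 genes 13.6% were called higher in neutrophils and 18.6% lower (median log2 ratio -0.24), and in the 99 against 65 single-type barcodes 21.6% were called higher and 32.3% lower. In the latter, 40.1% of the calls were higher, or 51.4% with totals without the rule genes. All 7 secondary granule genes tested, Ifitm6 among them, were higher, both in all members and in single-type members. Wfdc21 had 473 UMIs in neutrophils and 4 in macrophages (ratio 96.0, 37.3 to 354), Chil3 326 against 3 (88.3, 29.9 to 430), and Lcn2 1824 against 94 (15.8, 12.8 to 19.6). Of the primary granule genes, Prtn3, which encodes proteinase 3, had 60 UMIs against 0, at least 16.2-fold higher. Mpo, Elane and Ctsg, its companions in that granule, had 5, 15 and 1 UMIs in the 337 AS members, and the division genes Mki67 and Top2a had 5 and 0.

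The genes furthest above macrophages included both known neutrophil genes and products of activated myeloid cells. Il1r2 had 348 UMIs against 0, at least 94.2-fold higher. Asprv1, an aspartic protease found in neutrophils, Acod1, which makes itaconate, and Slc7a11, a cystine transporter, had 126, 108 and 90 UMIs against 0, at least 34.1-fold, 29.2-fold and 24.4-fold higher. Hdc, the histamine-forming enzyme, had 150 against 1 UMIs, a ratio of 122 with an interval from 21.5 upward, and Slfn4, an interferon-induced Schlafen gene, had 165 against 1 (134, from 23.7 upward). Saa3, an acute phase apolipoprotein also made in fat tissue, had 1023 against 11 UMIs (75.5, 42.0 to 152) and 575 against 2 in single-type barcodes. Ifitm1 and Wfdc17 were both abundant and separating. Ifitm1, an interferon-induced membrane protein, had 1687 against 22 UMIs (62.3, 41.0 to 99.7), and Wfdc17 had 2605 against 185 (11.4, 9.85 to 13.3). At the low end, besides the C1q genes that chose the macrophages, Slurp1, a secreted protein known from epithelia, had 0 UMIs against 103, and 0 in the single-type barcodes of both. Ms4a7 had 1 UMI against 187 and Mmp12, the macrophage elastase, 4 against 337.

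Over all AS members, Cxcl2, Il1b and Ccl3 stood above macrophages, and some other myeloid genes stood below. Cxcl2 stood at 11917 CPM in neutrophils and 3059 in macrophages (3.90, 3.64 to 4.17), Il1b at 883 against 33.5 (26.4, 14.6 to 53.3) and Ccl3 at 824 against 85.3 (9.66, 6.56 to 14.8). Tnf did not differ beyond counting error, at 319 against 335 CPM (0.952, 0.733 to 1.24), and its ratio lay just above 1 under both other scalings. Tyrobp and Fcer1g, the paired myeloid adaptors, were lower in neutrophils, at ratios of 0.688 (0.616 to 0.767) and 0.478 (0.427 to 0.534). These ratios are over all members, most of them mixed. The 2 genes stood at 1514 and 1247 CPM there, but at 2727 and 2357 CPM in the AS single-type members, so the direction is given for all members alone. Lyz2, lysozyme, was at 658 CPM against 10423, a ratio of 0.0632 (0.0555 to 0.0716). Of 13 cytokine and chemokine genes tested 8 were called higher and 1 lower, of 17 receptors 11 and 1, and of 10 interferon-stimulated genes 8 and 0.

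The libraries could be compared member for member only where the foreign RNA allowed it. Over all members, AS against Healthy gave 18.1% of 3505 genes higher and 24.5% lower, and AS against MTZ-treated 17.6% of 3757 higher and 31.1% lower. With TMM factors the share of calls that were higher went from 42.4% to 58.1% against Healthy and from 36.2% to 79.7% against MTZ-treated, so neither direction holds across scalings. The adipocyte list held 3625 UMIs in AS members against 3 in Healthy and 1 in MTZ-treated, and the fibroblast list stood at 1745 CPM against 12119 and 9746. With that beside them, 7 of 13 cytokines were called higher in AS than in Healthy and 1 lower, and 6 of 7 secondary granule genes and 11 of 17 receptors were higher in AS than in MTZ-treated. Only 8 and 17 single-type members remain in those libraries, so their levels are given as values. The single-type members of AS and MTZ-preventive, 99 and 67, were compared gene by gene.

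**Figure D5:**
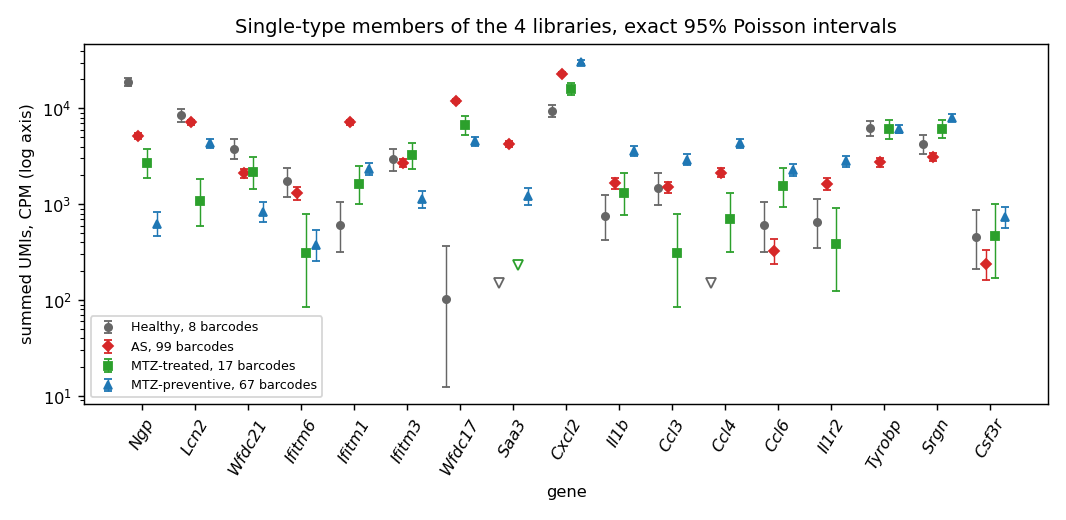
Summed level in CPM (log axis) of 17 genes in the single-type members of the 4 libraries (8, 99, 17 and 67 barcodes), with exact 95% Poisson intervals; open triangles mark the level of 3 UMIs for genes at 0. Ifitm1, Wfdc17 and Saa3 lie highest in AS, and Il1b, Ccl3, Ccl4 and Srgn lie highest in MTZ-preventive.

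Some genes of the secondary granule list, which includes the membrane protein Ifitm6, stood higher in AS than in MTZ-preventive. Over all members, 337 against 84, 13.1% of 3035 genes were called higher in AS and 16.6% lower. Of those calls 44.1% were higher, or 55.2% with TMM factors. In the same members 4 of 7 secondary granule genes were higher and 0 lower, and all 6 endothelial genes and all 5 smooth muscle genes tested were higher too. Among 2802 genes in single-type members 20.5% were called higher in AS and 18.2% lower (median log2 ratio 0.01), and of the 7 secondary granule genes tested 4 were higher and 0 lower. When each barcode counted equally, as a mean over barcodes, 2 of the 7 were higher and 0 lower. Ifitm6 was 1 of the 4 and 1 of the 2. With the rule genes included, the list summed to 19384 CPM in AS and 9108 in MTZ-preventive. Ngp, which the maturity rule used, had 370 UMIs in 4 of 8 Healthy members, 702 in 42 of 99 AS members, 35 in 7 of 17 MTZ-treated and 51 in 13 of 67 MTZ-preventive, or 18812, 5188, 2715 and 624 CPM, and 1 AS barcode gave 267 of the 702. Its level was highest in Healthy and lowest in MTZ-preventive. Lcn2 stood at 8440, 7176, 1086 and 4346 CPM in the same order, and AS was 1.65 times MTZ-preventive (1.46 to 1.87). Wfdc21 was 2.52 times higher in AS (1.93 to 3.34) and Ifitm6 3.43 times (2.33 to 5.20), while Chil3 was lower at 0.631 (0.511 to 0.778) and Mmp8 did not differ beyond counting error at 1.27 (0.892 to 1.83). As means over barcodes the ratios were 1.67 for Wfdc21, 2.84 for Ifitm6, 1.25 for Lcn2 and 3.87 for Ngp, each below its ratio of summed levels. Camp was uneven, with 373, 93, 100 and 1 UMIs in 4, 5, 3 and 1 barcodes.

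Several interferon-stimulated genes were also higher in AS. Of 10 tested 5 were called higher in AS and 0 lower, counts that did not change as means over barcodes, with a summed level of 14196 against 7553 CPM. Ifitm1 stood at 610, 7168, 1629 and 2326 CPM in the order of Healthy, AS, MTZ-treated and MTZ-preventive, and it was detected in 88 of the 99 AS members and 43 of the 67 MTZ-preventive ones. AS was 3.08 times MTZ-preventive (2.64 to 3.62), or 2.04 times as a mean over barcodes. Ifitm3 was 2.40 times higher (1.91 to 3.05) and Isg15 2.59 times (1.51 to 4.69), but Ifitm2 was not, at 0.881 (0.755 to 1.03). Isg15 stood higher still in Healthy, at 1932 CPM on 38 UMIs, of which 1 barcode gave 25, and at 887 CPM without that barcode. Wfdc17 stood at 102, 12001, 6670 and 4517 CPM, AS being 2.66 times MTZ-preventive (2.37 to 2.98). Saa3 had 0 UMIs in Healthy, 575 in 56 AS members, 0 in MTZ-treated and 99 in 7 MTZ-preventive members, a ratio of 3.51 (2.83 to 4.38), or 7.29 as a mean over barcodes. Hp, haptoglobin, an acute phase gene too, stood at 2365 CPM in AS and 2277 in MTZ-preventive.

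Cytokines stood lower in AS than in MTZ-preventive. Of 15 tested, 0 were called higher in AS and 9 lower, or 0 and 10 over all members (median log2 ratio -1.04), with summed levels of 30306 and 47364 CPM. Other properties of these single-type members differed as well. The median share of UMIs on the ribosomal RNA genes was 7.13% in AS and 2.79% in MTZ-preventive, and on ribosomal protein genes 7.50% and 4.87%. Median depth was 845 and 1004 UMIs. Their part in the differences between these libraries was not tested. Il1b stood at 763, 1663, 1319 and 3575 CPM in Healthy, AS, MTZ-treated and MTZ-preventive, and was detected in 38 of 99 AS members against 53 of 67 MTZ-preventive ones, a ratio of 0.465 (0.389 to 0.555). Ccl6, a CC chemokine of myeloid cells, stood at 610, 325, 1551 and 2301 CPM, lowest in AS, with a ratio of 0.141 (0.0993 to 0.197). Cxcl2 stood at 9355, 22916, 16055 and 30446 CPM, with a ratio of 0.753 (0.714 to 0.794). Ccl3 and Ccl4 had ratios of 0.513 (0.423 to 0.621) and 0.497 (0.424 to 0.583), and Nlrp3 0.286 (0.187 to 0.430). Other myeloid genes were lower as well: Tyrobp at 2727 against 6072 CPM (0.449), Srgn, the core protein of granule proteoglycan, at 3104 against 7994 (0.388) and Mcl1 at 1604 against 3599 (0.446). Of 19 receptors 1 was called higher and 3 lower, Clec4d, a C-type lectin, at 0.276 (0.192 to 0.392), and of 6 oxidase genes 0 and 0.

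Some of these differences were smaller or turned among mature members. In single-type members mature alone, 26 in AS and 41 in MTZ-preventive, 34.3% of 3533 genes were called higher and 22.5% lower (median 0.33), so that 60.4% of the calls were higher, or 40.4% with TMM factors. Cytokines then had 3 of 15 higher and 5 lower, summing to 48421 against 42745 CPM, and Cxcl2 turned direction, at 1.31 times MTZ-preventive (1.22 to 1.42). Il1b at 0.848 (0.677 to 1.06) no longer differed beyond counting error. Ccl6 stayed low at 0.130 (0.0676 to 0.229), Tyrobp at 0.567 and Srgn at 0.630. The AS-high genes mostly kept their direction: Ifitm1 at 3.62 (2.89 to 4.55), Wfdc17 at 2.81 (2.43 to 3.26), Saa3 at 9.19 (7.06 to 12.1) and Lcn2 at 1.45, with 6 of 11 interferon-stimulated genes higher and 0 lower. Ifitm6, at 0.960, did not. Of the secondary granule genes as a list, 3 were called higher among mature members but 0 with TMM factors, so those calls did not hold across scalings. Red blood cell genes summed to 98 UMIs in AS single-type members and 0 in MTZ-preventive ones, and the part that RNA from outside the cell takes in these differences was not tested.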

How the data were processed

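Gene expression was read from 4 single-cell 5′ libraries, 1 per condition, each of 6 pooled aortas. The deposited matrices hold raw UMI counts per gene and barcode, as the authors made them with Cell Ranger (5.0.0 per the file headers), and the submitters' processing notes name STAR and mm10. The deposited contig tables of B cell and T cell receptors give UMI counts of each contig. Deposited barcodes numbered 21857 (Healthy), 6908 (AS), 20938 (MTZ-treated) and 23963 (MTZ-preventive), with 42235505, 7617682, 26196680 and 50769911 UMIs in total. The limits on genes, UMIs and mitochondrial share were applied here, and no doublet caller was run; mixed barcodes were counted instead.

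Members, gene lists and comparisons were chosen with earlier results of these data known. UMIs were summed per class and scaled to CPM. Shares carry exact Clopper-Pearson intervals, levels exact Poisson intervals and ratios exact conditional binomial intervals, all at 95%, and a count of 0 was bounded at 3 UMIs of the class. Since cells of 1 pooled library are not replicates, the intervals cover counting error only and no test was run. The ratio, its interval and the 2-fold call were run on simulated class sums with known folds. That simulation had no spread between barcodes, free RNA or mixed barcodes. It did not cover the membership, mixed and maturity rules or the thinning. Named genes were those of the rules and lists, the 20 most abundant in AS members, and the 12 highest and 12 lowest (6 lowest for macrophages) ratios among genes reaching 200 CPM. Python 3.11.15, numpy 2.4.6, scipy 1.17.1, pandas 2.3.3, matplotlib 3.10.9, R 4.3.3 and edgeR 4.0.16 (TMM factors, an alternative scaling, for single-type members added after seeing the data) were used. Promoter windows are RefSeq's.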

Additional observations from a re-analysis of the deposited data

How the results depend on the processing

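With more than 1000 UMIs required, the AS share of 5.11% became 7.45%, the log2 ratio of shares over MTZ-treated went from 4.69 to 5.90 and that over MTZ-preventive from 3.80 to 4.63. With 10 UMIs of the 3 genes the AS share was 10.9% and the MTZ-preventive ratio 4.29, with 50 UMIs 1.76% and 2.85, and with 2% of the UMIs the share was 6.002% and the MTZ-treated ratio 4.20. Without mixed barcodes the share was 1.5% and the ratios 5.32 (Healthy), 4.20 (MTZ-treated) and 2.36 (MTZ-preventive). Choices added after seeing the data gave 0.667%, 3.79 (MTZ-treated) and 2.09 (MTZ-preventive) without barcodes holding 2 UMIs of another list, and 2.36%, 5.81 (Healthy) and 2.91 (MTZ-preventive) with Fabp4 and Cfd not counted.

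The mature share of AS members, 22%, became 28.0% above 1000 UMIs, 7.12% when 2 and 5 UMIs were required, 34.3% without mixed barcodes, 50% without barcodes holding 2 UMIs of another list, 28.2% with Fabp4 and Cfd not counted and 13.4% at 500 UMIs. The immature share, 22.3%, became 33.5% above 1000 UMIs, 14.8% at 2 and 5 UMIs, 27.3% without 2 UMIs of another list and 10.4% at 500 UMIs.

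Genes 2-fold apart between mature and immature members numbered 1426, and 2915 at 20 CPM, 5537 with no minimum, 42 at 1000 CPM and 2690 without mixed barcodes. Against macrophages 1028 became 2241, 6776, 57 and 1809. At 1000 CPM the counts were 44 for Healthy (of 1492), 35 for MTZ-treated (of 1832) and 45 for MTZ-preventive (of 901). At 50 CPM single-type mature members gave 2007 against MTZ-preventive. Without mixed barcodes Mrap turned from -2.42 to 4.83, on 1 UMI against 0. The turns of Cxcl2 and Ifitm6 among mature members and of Lcn2 and Wfdc21 without the deepest immature barcode are given above. TMM factors moved the median log2 ratio of all genes by -0.19 between maturity classes (0.12 in single-type members), 0.08 against macrophages (0.13), 0.23 against Healthy, 0.54 against MTZ-treated and 0.06 against MTZ-preventive (0.09, and -0.14 in mature members), and totals without the rule genes by up to -0.36 (maturity classes, single-type). Tnf turned against macrophages under both. In single-type members against MTZ-preventive cytokines then had 7 of 15 lower instead of 9, and among mature members TMM left 0 of 6 secondary granule genes higher instead of 3 of 7. As a mean over barcodes Hp turned to 0.917. No paired analysis was possible because each condition was 1 library. With 1 pooled library per condition, condition, pool and preparation cannot be told apart, and genes under about 200 CPM in the smaller classes rest on few UMIs. The cause of each change was not tested.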

Other observations

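Carbonic anhydrases, the enzymes that MTZ inhibits, held few UMIs in the single-type members. The 12 genes searched held 6 UMIs in the 99 AS single-type members and 3 in the 67 MTZ-preventive ones. In all AS members they held 267 UMIs, of which 219 were Car3, a gene of fat cells, in 66 barcodes, beside the 3625 adipocyte-list UMIs given above.

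Ferritin transcripts were abundant in single-type members. Fth1, the ferritin heavy chain that stores iron, stood at 47487 CPM in MTZ-preventive against 31523, 24793 and 26371 CPM in Healthy, AS and MTZ-treated, with AS at 0.522 times MTZ-preventive. Ftl1, the light chain, stood at 10576, 6643, 8687 and 10993 CPM in the order of Healthy, AS, MTZ-treated and MTZ-preventive. For Fth1 the other 3 libraries lay close together, and without the highest barcode of each MTZ-treated was lowest, at 22656 CPM against 23128 in AS. Slpi, the secretory leukocyte peptidase inhibitor, stood at 5847, 2010, 4421 and 4456 CPM in the same order, lowest in AS (0.451 of MTZ-preventive, 0.384 to 0.529).

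Among mixed members, 1 in Healthy, 3 in AS and 1 in MTZ-preventive held a B cell receptor contig, and 1 in MTZ-preventive held a T cell receptor contig.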
